A study of Rattus norvegicus with 5 samples.

Results

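The keratin genes of the rat cornea were followed here through 5 RNA sequencing libraries. They were taken as every gene symbol made of Krt, a number and at most 1 further letter. The rule found 44 of the 20339 genes of the gene table, and 3 more names, Krt15, Krt16 and Krt19, that only the isoform table of 55002 isoforms carries and that were used as sums of their isoforms, which gives 47 keratins. The libraries came from corneas dissected from male rats of the Sprague-Dawley background at 6 months of age. Wild-type rats gave 3 libraries, called controls 1 to 3, and transgenic P1 hMR rats, which overexpress human NR3C2, the gene of the mineralocorticoid receptor, gave 2, called hMR corneas 1 and 2. The labels name no agent given to either group. They also do not say which promoter or cell type drives the transgene, whether a library is 1 rat or a pool, or how much of the limbus and conjunctiva the dissection took with the cornea. A p-value here therefore measures only the spread between these 5 samples.

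Keratins are the intermediate filament proteins of epithelial cells. A type I (acidic) keratin pairs with a type II (basic) keratin to build the filament, and the pair in use marks the site and stage of an epithelium. In the cornea, Krt12 with its type II partner Krt3 or, in rodents, Krt5 marks differentiated corneal epithelium, Krt5 with Krt14 marks basal cells, Krt15 marks basal and limbal cells, and Krt13, Krt4 and Krt19 mark conjunctiva and other moist linings. Krt1 and Krt10 belong to the cornified epidermis, and Krt16 and Krt17 are induced in stressed or wounded epithelium. Krt3 and the Krt6 genes had no row under those names among the genes or isoforms, so they could not be read here.

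All 47 keratins had an entry in RefSeq (build GRCr8), 22 on chromosome 7, which carries the type II cluster and the type I gene Krt18, and 25 on chromosome 10, which carries the other type I genes. The table of RefSeq promoters held 34 of the 47, and 14 of the 23 keratins with a mean of at least 1 CPM (a count scaled to a common library size) over the 5 libraries. The 250 bases before the start are shown for 4 of these. Krt12 (chr10:84874266-84874515 on the minus strand) and Krt20 (chr10:84890286-84890535 on the minus strand) are neighbouring type I genes that were both lower in the second hMR cornea than in the first. Krt4 (chr7:134930714-134930963 on the minus strand) and Krt71 (chr7:134761034-134761283 on the minus strand) are type II genes that were both higher in it. Each sequence reads 5′ to 3′ towards the gene, and capitals mark the TATA box core TATAA or its reverse complement TTATA, which overlap near the 5′ end of the Krt71 window.
Krt12: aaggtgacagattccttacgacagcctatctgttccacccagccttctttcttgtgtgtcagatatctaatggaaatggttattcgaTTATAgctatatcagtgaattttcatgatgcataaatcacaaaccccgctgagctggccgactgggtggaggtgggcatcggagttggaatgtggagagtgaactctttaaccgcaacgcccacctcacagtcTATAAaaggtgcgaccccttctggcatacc
Krt20: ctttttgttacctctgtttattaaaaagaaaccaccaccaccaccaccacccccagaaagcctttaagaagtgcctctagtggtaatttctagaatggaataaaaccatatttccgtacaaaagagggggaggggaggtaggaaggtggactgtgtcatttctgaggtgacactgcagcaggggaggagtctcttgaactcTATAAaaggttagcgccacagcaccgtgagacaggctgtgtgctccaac
Krt4: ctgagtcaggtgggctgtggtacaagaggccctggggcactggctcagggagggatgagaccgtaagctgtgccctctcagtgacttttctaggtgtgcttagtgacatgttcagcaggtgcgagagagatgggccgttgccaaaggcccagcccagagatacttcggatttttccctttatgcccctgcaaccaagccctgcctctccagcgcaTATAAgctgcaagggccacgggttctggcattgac
Krt71: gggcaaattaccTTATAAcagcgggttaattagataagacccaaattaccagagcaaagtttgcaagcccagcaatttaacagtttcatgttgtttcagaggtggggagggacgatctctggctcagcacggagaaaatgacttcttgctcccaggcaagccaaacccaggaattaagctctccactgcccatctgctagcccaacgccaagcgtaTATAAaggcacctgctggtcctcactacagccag
The forward TATAA nearest to the gene began 30 bases before the start in Krt12 and 35 in Krt4. It began 49 bases before the start in Krt20. On either strand this core was present in 27 of 36 keratin windows (Krt79 has 3 windows), against 24.0% of all 33469 promoter windows of the same length, and in 10 of the 14 windows of keratins at 1 CPM or more. CACCC or its reverse complement GGGTG, the core bound by Krüppel-like factors, was present in 22 of 36 keratin windows against 49.2% of all windows. The half-site of the glucocorticoid and mineralocorticoid response element, AGAACA or its reverse complement TGTTCT, was present in 2 of 36 keratin windows against 17.5% of all windows. Both of those windows belong to hair keratins that were at 0 counts in every library, Krt25 and Krt73, and none of the 14 windows of keratins at 1 CPM or more held these letters. Krt1, Krt7, Krt13, Krt14, Krt15, Krt16, Krt17, Krt19 and Krt80, also at 1 CPM or more, had no window, so nothing is known of them here. These are matches of letters in a window and not measured binding.

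The deposited values are estimated counts per gene and per isoform, so reads shared by near-identical keratins were divided between them by estimation, and the value of 1 member of such a family is less certain than a sum over the family. Strand was not given in the sources used here. Gene totals ran from 20874010 to 30449675 counts a library. Human NR3C2 had 0 counts in all 3 controls, 1094 in hMR cornea 1 and 1146 in hMR cornea 2. CPM was computed against the normalised library size and not scaled for transcript length, so it serves to compare 1 gene across libraries. Where genes or classes are set against each other below, the shares are of counts and not of transcript numbers. In a bulk sample, fewer cells of a type and less RNA per cell cannot be told apart.

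Keratins took 7.47%, 8.38% and 7.89% of all counts in controls 1 to 3, and 8.83% and 7.36% in hMR corneas 1 and 2. The hMR pair thus held both the highest and the lowest share. In all keratin totals and shares given here, Krt14 was counted from the isoforms of that name and not from its whole row. Krt12 alone took 3.33% to 4.49% of all counts and Krt5 3.05% to 3.67%. Together they made up 91.1%, 90.8% and 90.3% of keratin counts in controls and 92.5% and 87.3% in hMR corneas, lowest in hMR cornea 2. Of the remaining 45 keratins, 21 reached 1 CPM on average and 24 did not. The libraries are set side by side for the 23 more abundant keratins in the plot of CPM by library.

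**Figure D1:**
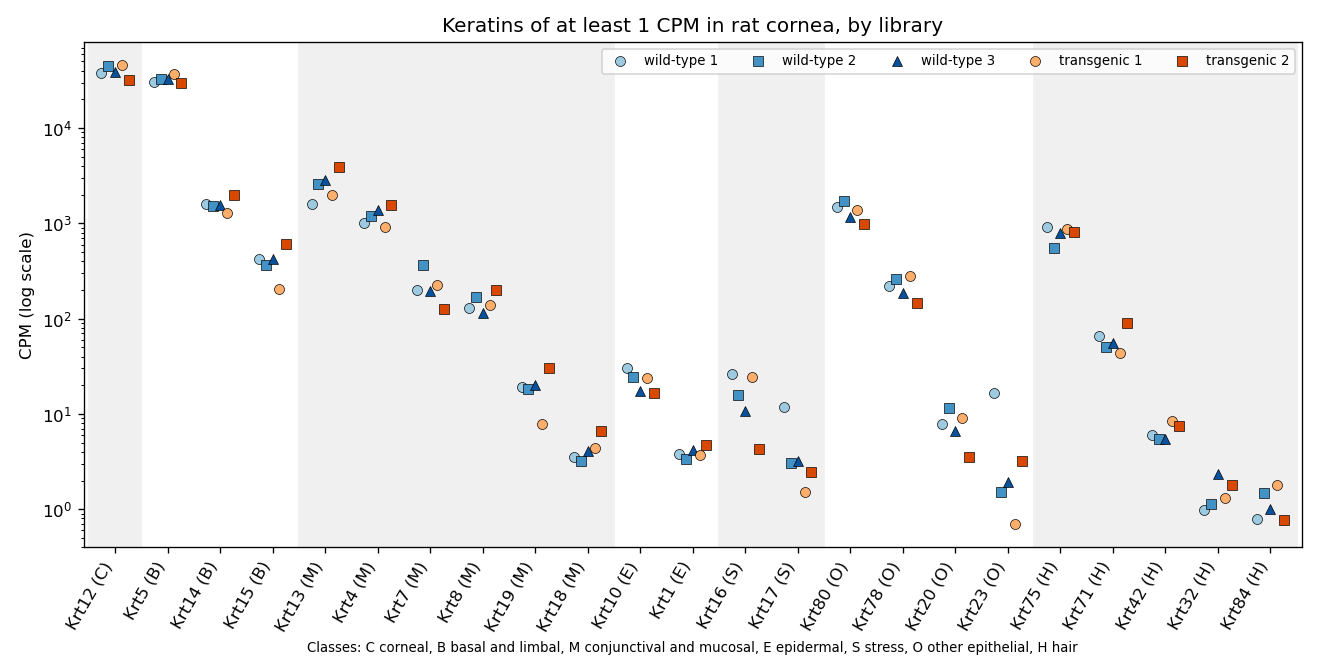
CPM of the 23 keratins with a mean of at least 1 CPM (log axis), 1 point per library: blue for the 3 wild-type corneas (controls), orange and red for the 2 transgenic (hMR) corneas; letters and shading give the class. In Krt15 and Krt19 the 2 hMR points lie at opposite ends with the 3 control points between them (203 and 607 CPM around 369 to 423 CPM for Krt15). Krt14 is drawn from its whole gene-table row, which is not a measure of Krt14 alone. Its named isoforms had 442 to 557 CPM.

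The corneal keratin Krt12, whose human counterpart is mutated in Meesmann corneal dystrophy, had 37489, 45093 and 38584 CPM in controls 1 to 3 and 45506 and 32247 CPM in hMR corneas 1 and 2. hMR cornea 1 was the highest of the 5 and hMR cornea 2 the lowest, so the groups overlapped. The log2 fold change, transgenic against wild-type, was -0.06 ± 0.16 (SE) and did not pass edgeR's quasi-likelihood test (Benjamini-Hochberg adjusted p = 0.969). Krt5, the type II keratin of basal epithelial cells, had 30501, 32691 and 32561 CPM in controls and 37218 and 30011 CPM in hMR corneas, again with the hMR pair at the top and the bottom (0.07 ± 0.13). Counted within each library, the ratio of Krt5 to Krt12 counts was 0.814, 0.725 and 0.844 in controls and 0.818 and 0.931 in hMR corneas. Only hMR cornea 2 lay above the control range in that ratio.

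Of the basal and limbal keratins, Krt15 differed most between the hMR libraries. Krt15 had 423, 369 and 423 CPM in controls 1 to 3, 203 CPM in hMR cornea 1 and 607 CPM in hMR cornea 2. The control values lay within 1.15-fold of each other, while the transgenic ones stood 1 below and 1 above all of them, 3.00-fold apart. Their means were 405 ± 31.4 CPM (SD, n = 3) and 405 ± 286 CPM (SD, n = 2), and the log2 fold change between genotypes was 0.00067 ± 0.51 (edgeR, adjusted p = 1.00). Fitted without hMR cornea 2, which leaves 1 transgenic library that is assumed to vary like the others, the log2 fold change of Krt15 was -0.997. Without hMR cornea 1 it was 0.58. The sign of the Krt15 difference thus depended on which transgenic library was in the fit.

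Krt14, the type I partner of Krt5 in basal cells, needs care in the gene table. The row labelled Krt14 had 1596, 1531 and 1541 CPM in controls and 1281 and 1973 CPM in hMR corneas (0.06 ± 0.17). In each of the 5 libraries this row equalled, within 0.01 counts, the sum of the isoforms named Krt14, Krt15, Krt16, Krt19 and Ka11 and of 2 isoforms that carry no gene name. A search over 16 combinations of the named parts with up to 2 of the 26948 unnamed isoforms, at a tolerance of 0.05 counts, found exactly 1 match. Isoforms named Krt14 made up 29.9%, 32.3% and 28.6% of the row in controls and 43.5% and 25.0% in hMR corneas. Krt15 made up 15.8% of it in hMR cornea 1 and 30.8% in hMR cornea 2. The reads of Krt15, Krt16 and Krt19 therefore stand both in that row and in their own isoform sums, and the row is not a measure of Krt14 alone.

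Taken from its own isoforms, Krt14 had 477, 494 and 442 CPM in controls and 557 and 493 CPM in hMR corneas. hMR cornea 1 was above the control range and hMR cornea 2 just inside it. The log2 fold change was 0.16 ± 0.10 (edgeR, adjusted p = 0.859), and the ratio of hMR cornea 2 to hMR cornea 1 was 0.886, against 1.54 for the whole row. The unnamed isoforms of the row had 396, 321 and 355 CPM in controls and 168 and 522 CPM in hMR corneas, with the hMR values below and above all controls, as for Krt15, and 3.11-fold apart. Ka11, an older type I keratin name outside the rule, had a ratio of 0.983. The stacked plot of the Krt14 row shows these parts.

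**Figure D2:**
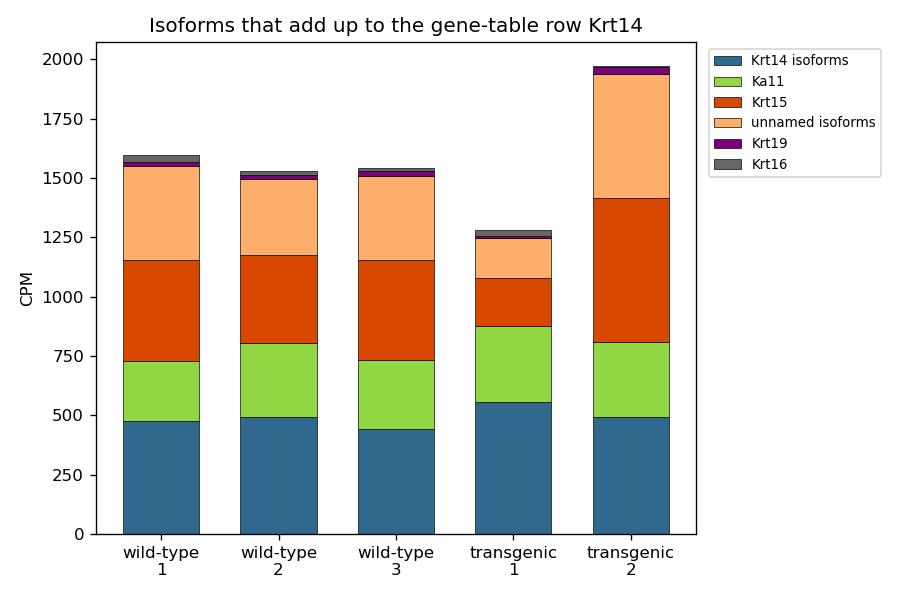
Isoforms that add up to the gene-table row labelled Krt14, as stacked bars of CPM in each of the 5 libraries. The Krt14 isoforms and Ka11 are of similar height throughout, while the Krt15 segment goes from 203 CPM in hMR cornea 1 to 607 CPM in hMR cornea 2 and the unnamed isoforms from 168 to 522 CPM.

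Among the conjunctival and mucosal keratins, Krt13, the type I keratin of the conjunctiva, oesophagus and oral lining, had 1608, 2591 and 2821 CPM in controls and 1986 and 3949 CPM in hMR corneas. hMR cornea 2 was the highest of the 5 and hMR cornea 1 lay within the control range (log2 fold change 0.34 ± 0.40; edgeR, adjusted p = 0.914). The transgenic libraries differed 1.99-fold, just under the 2-fold limit applied to pairs of libraries, and the controls spanned 1.75-fold. Krt4, its type II partner, had 1017, 1188 and 1372 CPM in controls and 916 and 1562 CPM in hMR corneas, 1.71-fold apart. As for Krt15, the hMR pair enclosed the control values of Krt4.

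Krt19, the small type I keratin of simple epithelia and of conjunctival and limbal cells, had 19.2, 18.3 and 20.3 CPM in controls and 7.93 and 30.2 CPM in hMR corneas. The 3 control values were within 1.11-fold of each other, and the hMR values lay 1 below and 1 above them, 3.80-fold apart. Its log2 fold change between genotypes was -0.01 ± 0.59 by edgeR (adjusted p = 0.999). It was -1.28 without hMR cornea 2 and 0.64 without hMR cornea 1. Krt8 and Krt18 form the keratin pair of simple epithelia. For Krt8 the values were 128, 170 and 115 CPM in controls and 139 and 201 CPM in hMR corneas, with hMR cornea 2 the highest (0.30 ± 0.22). Krt18 had 3.50, 3.23 and 4.10 CPM in controls and 4.40 and 6.69 CPM in hMR corneas, and both hMR values were above all controls. Its log2 fold change was 0.62 ± 0.26, and it did not pass after adjustment over all genes (edgeR, adjusted p = 0.768).

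Krt7, a type II keratin of simple and glandular epithelia that the conjunctiva also makes, went the other way between the hMR libraries. It had 199.97, 365 and 196 CPM in controls and 228 and 127 CPM in hMR corneas (log2 fold change -0.52 ± 0.44). hMR cornea 2 was the lowest of the 5, and control 2 the highest. Summed, the 6 conjunctival and mucosal keratins made up 3.99%, 5.06% and 5.75% of keratin counts in controls and 3.67% and 8.24% in hMR corneas. hMR cornea 1 had the smallest share of the 5 libraries and hMR cornea 2 the largest.

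Markers of cells other than corneal epithelium were read beside this class. Of the 8 genes listed for goblet and secretory cells of the conjunctiva, 6 were in the tables. Muc5ac and Muc16 had no row under those names, so they could not be read. Tff1 and Tff3 were at 0 in all 5 libraries and Agr2 did not exceed 0.0361 CPM. The other genes with a row were detected: Spdef had 2.82, 0.440 and 3.69 CPM in controls and 1.504 and 1.88 CPM in hMR corneas. Cldn10 had 16.7 to 21.9 CPM and then 18.7 and 19.9 CPM. The summed goblet list, almost all of it the water channel Aqp5 that corneal epithelium also makes, was 5204 to 5853 CPM in controls and 5360 and 4734 CPM in hMR corneas. Pigment cell genes (4 of 5 listed, none of them at 0 throughout) summed to 6.21 to 42.1 CPM in controls and to 73.6 and 140.4 CPM in hMR corneas 1 and 2. Leukocyte genes (4 of 4) summed to 85.4 to 93.0 CPM in controls and to 75.5 and 84.9 CPM in hMR corneas. Within that list, Cd74, a chain of antigen presentation, had 22.7 to 23.8 CPM in controls and 12.8 and 27.6 CPM in hMR corneas. Lyz2 had 11.8 to 18.2 CPM and then 14.2 and 24.5 CPM, and Ptprc 1.66 to 2.32 CPM and then 1.54 and 2.64 CPM. Only Cd68, a macrophage protein and the most abundant of the list, was lower in hMR cornea 2, with 42.5 to 56.0 CPM and then 47.0 and 30.1 CPM. The pigment and leukocyte sums were thus higher in hMR cornea 2 than in hMR cornea 1. Both hMR pigment sums were above all controls, and both hMR leukocyte sums were below them. Corneal stroma genes summed to 35711 and 30870 CPM in hMR corneas 1 and 2, of which Aldh3a1 was 33910 and 28959 CPM. Corneal endothelium genes summed to 985 and 988 CPM there, and skeletal muscle genes to 14.2 and 16.7 CPM. The part of these cells in the keratin values was not tested.

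The epidermal keratins were minor. Krt10, the type I keratin of cornifying epidermis, had 30.3, 24.5 and 17.2 CPM in controls and 23.8 and 16.4 CPM in hMR corneas (log2 fold change -0.26 ± 0.27). Krt1, its type II partner in skin, had 3.76, 3.38 and 4.19 CPM in controls and 3.70 and 4.78 CPM in hMR corneas (0.17 ± 0.24). For both genes the groups overlapped. The 5 epidermal keratins made up 0.0460%, 0.0329% and 0.0273% of keratin counts in controls and 0.0309% and 0.0300% in hMR corneas. Of 8 genes listed for cornified skin, 6 were in the tables and 3 of those reached a mean of 1 CPM, and the 6 summed to 1495 to 1590 CPM in controls and to 1835 and 1334 CPM in hMR corneas. Most of that sum was the desmosomal cadherin Dsg1, at 1575, 1480 and 1529 CPM in controls and 1810 and 1319 CPM in hMR corneas. Sprr3, a cornified envelope precursor, had 12.9, 12.6 and 9.29 CPM in controls and 18.97 and 7.39 CPM in hMR corneas. Casp14, a protease of cornified epithelium, had 1.95, 1.61 and 2.504 CPM in controls and 5.398 and 6.62 CPM in hMR corneas, while the envelope protein gene Lor did not exceed 0.364 CPM. Both hMR values were above all controls for Casp14, whereas for Dsg1 and Sprr3 the hMR pair enclosed the controls.

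The stress keratins varied widely within each genotype. Krt16, whose usual partners are the Krt6 proteins, had 26.2, 15.8 and 10.7 CPM in controls, 24.5 CPM in hMR cornea 1 and 4.28 CPM in hMR cornea 2. hMR cornea 2 lay below every other library, 5.71-fold below hMR cornea 1, and the control values themselves spanned 2.46-fold (log2 fold change -0.30 ± 0.90; edgeR, adjusted p = 0.972). Krt17 had 11.9 CPM in control 1, 3.09 and 3.24 CPM in controls 2 and 3, and 1.51 and 2.49 CPM in hMR corneas. Both hMR values were below all controls, and control 1 stood 3.84-fold above control 2. The log2 fold change of Krt17 was -1.61 ± 0.77 (edgeR, adjusted p = 0.833), and -0.65 without control 1. Krt14, Krt16 and Krt17 are close in sequence, so the division of reads between them is uncertain.

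Other epithelial keratins at 1 CPM or more were Krt80, Krt78, Krt20 and Krt23. Krt80, a type II keratin found near desmosomes of differentiating cells, had 1490, 1727 and 1155 CPM in controls and 1389 and 989 CPM in hMR corneas (-0.29 ± 0.21). Krt78 had 220.3, 259 and 188 CPM in controls and 283 and 147 CPM in hMR corneas, 1.93-fold apart, with the hMR pair at both ends (-0.05 ± 0.32). Krt20, best known from intestinal epithelium and Merkel cells, had 7.91, 11.5 and 6.56 CPM in controls and 9.02 and 3.57 CPM in hMR corneas. For Krt80, Krt78 and Krt20 alike, hMR cornea 2 was the lowest library, and Krt20 was 2.53-fold lower there than in hMR cornea 1 (genotype log2 fold change -0.46 ± 0.44).

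Krt23, a type I keratin of simple epithelia, had 16.5 CPM in control 1, 1.52 and 1.91 CPM in controls 2 and 3, and 0.694 and 3.18 CPM in hMR corneas. Control 1 stood 10.9-fold above control 2, and the hMR libraries were 4.59-fold apart. The log2 fold change was -1.77 ± 1.55 with all libraries (edgeR, adjusted p = 0.888) and 0.20 without control 1, so its direction rested on that library. The row rests on 1 unnamed isoform, and the isoform named Krt23 was listed at 0. Lens genes (7 of 7 listed) also summed highest in control 1, at 24.5 CPM against 9.44 and 9.47 CPM in the other controls and 6.40 and 7.35 CPM in the hMR corneas, with Lim2 at most at 0.0722 CPM. Within that list, Crygs and Cryba2 had 7.04 and 8.81 CPM in control 1 and at most 1.96 and 2.64 CPM in any other library. Bfsp1 had 4.98 CPM in control 1 and 4.96 CPM in control 3. Skeletal muscle genes (4 of 5 listed) likewise summed highest in control 1, at 20.5 CPM. They summed to 12.1 and 9.42 CPM in the other controls and to 14.2 and 16.7 CPM in the hMR corneas. The part of these differences in Krt17 and Krt23 was not tested.

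Of 22 hair follicle and hair shaft keratins, 5 reached a mean of 1 CPM: Krt75, Krt71, Krt42, Krt32 and Krt84. Krt75, the companion layer keratin of the hair follicle, had 907, 556 and 799.8 CPM in controls and 882 and 816 CPM in hMR corneas, with both hMR values inside the control range (0.17 ± 0.20). Krt71, an inner root sheath keratin, had 66.4, 51.0 and 55.5 CPM in controls and 43.3 and 89.2 CPM in hMR corneas, which enclosed the control values and stood 2.06-fold apart (0.20 ± 0.34). Krt42, a type I keratin related to Krt17, had 6.01, 5.44 and 5.47 CPM in controls and 8.36 and 7.51 CPM in hMR corneas. Both hMR values of Krt42 were above all controls, with a log2 fold change of 0.49 ± 0.18 that did not pass after adjustment (edgeR, adjusted p = 0.731). Krt32 and Krt84 stayed between 0.764 and 2.32 CPM in every library, with overlapping groups (log2 fold changes 0.08 ± 0.45 and 0.24 ± 0.49).

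The other 24 keratins lay under a mean of 1 CPM. Of these, 6 (Krt25, Krt27, Krt39, Krt72, Krt73 and Krt81, all hair keratins) were at 0 counts in all libraries, which at 3 counts allows up to 0.0955 to 0.147 CPM a library, for counting error only. Of all 47 keratins, 18 had fewer than 10 counts in every library. Another 4, Krt31, Krt76, Krt79 and Krt85, had enough counts to be tested, and they are named here after their values were seen. The highest count among the 4 was 21, for Krt76 in hMR cornea 2, and in each the groups overlapped. The Krt31 row held the same values as an isoform named Krt34, and the isoform named Krt31 was at 0 in all libraries. The isoform named Krt85 was at 0 as well, so neither row rests on an isoform of its own name.

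Between genotypes, no keratin passed. edgeR's quasi-likelihood test with Benjamini-Hochberg adjustment over 13304 genes called 0 of the 24 keratins tested in the gene table, where 0.00752% of all genes were called. The corresponding test over 13657 rows, with the names found only in the isoform table added, called 0 of Krt15, Krt16 and Krt19, against 0.0146% of all rows. DESeq2 and limma voom also called 0 keratins. At an unadjusted p under 0.05, edgeR had 2 of the 24, Krt42 and Krt18, where 6.32% of all genes had such a p. The hMR pair exceeded every control in 2 of the 24, Krt42 and Krt18, against 12.0% of all genes, and lay below every control in 1, Krt17, against 10.7%.

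Of the 27 keratins tested, 17 had a log2 fold change above 0 and 10 below. Their median was 0.07, or 0.08 with Krt14 taken from its named isoforms, and their range -1.77 to 0.69, beside a median of -0.0078 over all genes tested. Adjusted p-values ran from 0.731 to 1.00. In the isoform table, of 67 isoforms with a keratin name, 29 were tested and 0 were called, where 0% of 27110 isoforms were called. At an unadjusted p under 0.05 there was 1 keratin isoform, the tested isoform of Krt42, against 3.98% of all isoforms. A p that misses the threshold does not show that the genotypes were alike, since the standard errors in the plot of genotype differences reached 1.55 on the log2 scale for Krt23.

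**Figure D3:**
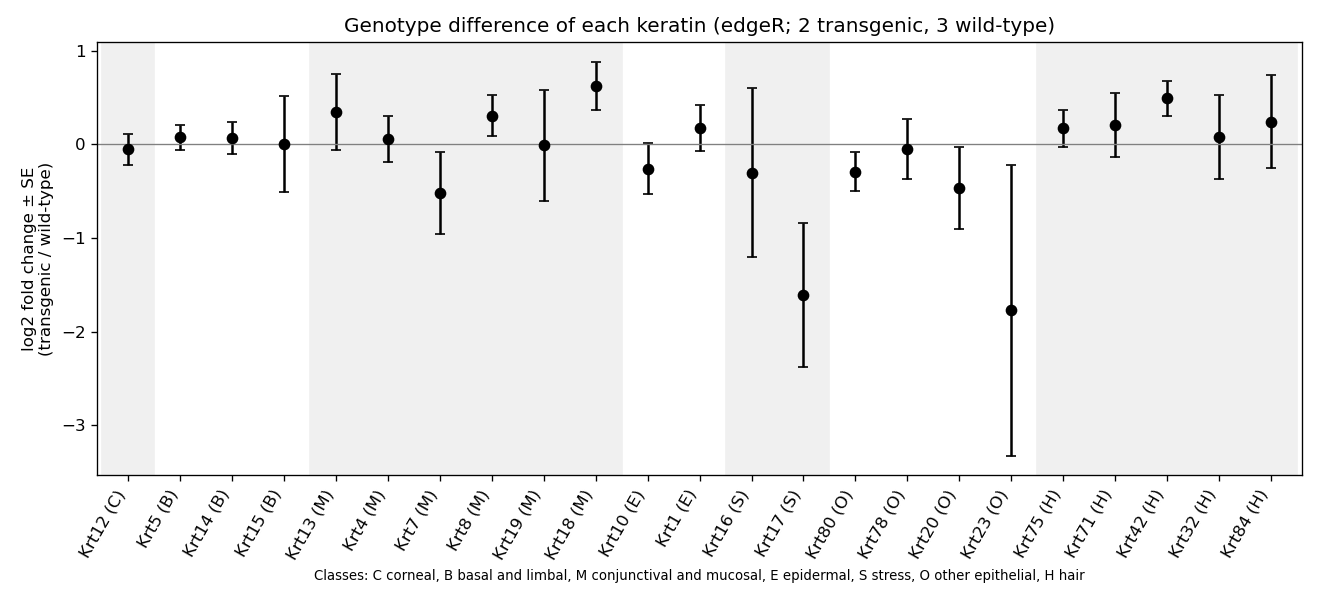
Log2 fold change (transgenic against wild-type, edgeR) of the 23 keratins at 1 CPM or more, with bars of 1 standard error on each side; 2 transgenic and 3 wild-type libraries. Krt12 and Krt5 lie close to 0 with narrow bars (-0.06 ± 0.16 and 0.07 ± 0.13), and Krt17 and Krt23 lie lowest with wide ones (-1.61 ± 0.77 and -1.77 ± 1.55). The Krt14 point is the whole gene-table row (0.06 ± 0.17), against 0.16 ± 0.10 for its named isoforms.

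Keratins also differed between libraries of the same genotype. hMR cornea 2 was at least 2-fold higher than hMR cornea 1, on a scale of CPM with 0.5 added, in 4 of the 23 keratins (Krt15, Krt19, Krt71 and Krt23), against 0.966% of all 12418 genes at 1 CPM or more. It was at least 2-fold lower in 2 of them (Krt16 and Krt20), against 0.854% of all genes. The median size of the log2 ratio between the hMR libraries was 0.62 over the 23 keratins, or 0.57 with Krt14 taken from its named isoforms, and 0.15 over all genes. There is 1 library on each side, so this contrast has no test, and the labels give no difference between the transgenic rats.

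The control pairs were read in the same way. The median size of the log2 ratio over the 23 keratins was 0.27, 0.21 and 0.27 for control 2 against 1, 3 against 1 and 3 against 2, where all genes had 0.15, 0.16 and 0.17. No keratin was 2-fold higher in any of these pairs, where 0.451%, 0.564% and 1.18% of all genes were. At least 2-fold lower were 2 keratins in control 2 against 1 (Krt17 and Krt23; 1.52% of all genes), 3 in control 3 against 1 (Krt16, Krt17 and Krt23; 1.08%) and 0 in control 3 against 2 (0.652%). Every 2-fold difference among controls on this scale thus involved control 1. Krt15, Krt19 and Krt71, 2-fold apart in the hMR pair, stayed within 1.30-fold of each other across the 3 controls.

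**Figure D4:**
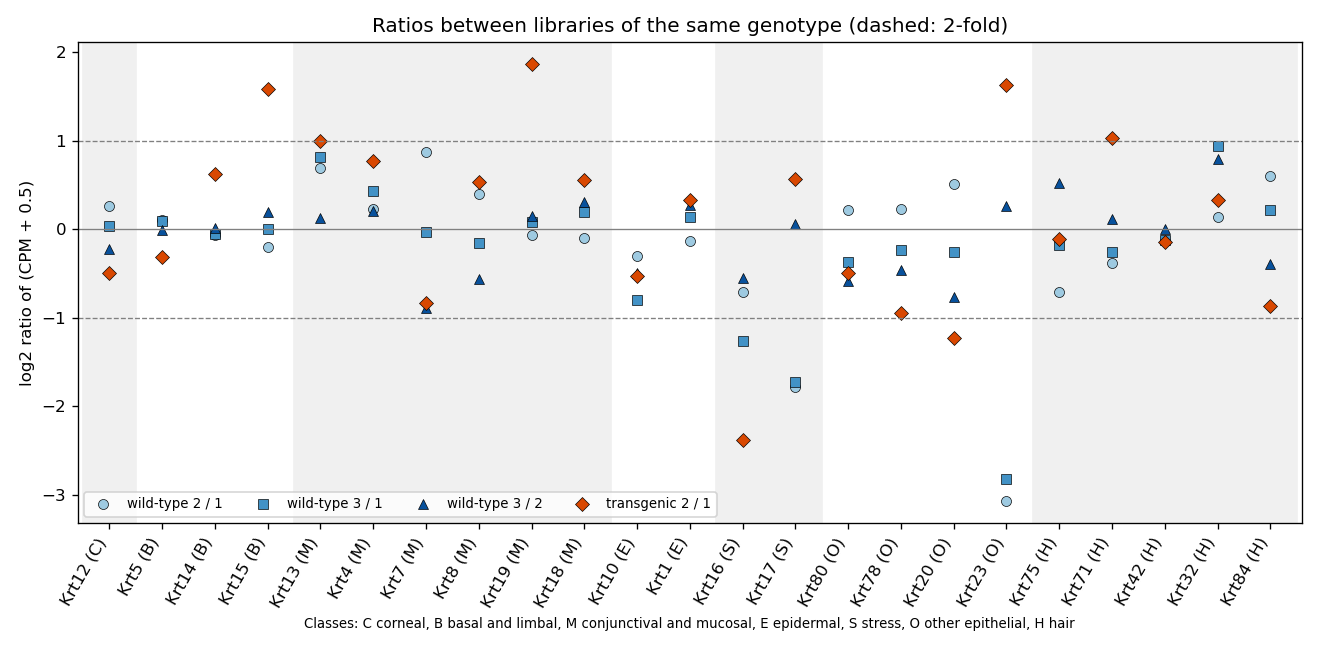
Log2 ratios of CPM + 0.5 between libraries of the same genotype for the 23 keratins at 1 CPM or more; blue symbols are the 3 control pairs, red diamonds hMR cornea 2 against hMR cornea 1, and dashed lines mark 2-fold. The red diamonds of Krt15 (1.58) and Krt19 (1.86) lie far above the control symbols, that of Krt16 (-2.38) far below, and only Krt23, Krt17 and Krt16 have control symbols beyond the dashed lines. The Krt14 symbols are the whole gene-table row (hMR ratio 1.54), where its named isoforms had a ratio of 0.886.

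By class, corneal Krt12 made up 50.2%, 52.7% and 49.0% of keratin counts in controls and 50.9% and 45.2% in hMR corneas. Basal and limbal keratins, mostly Krt5, made up 42.1%, 39.2% and 42.4% in controls and 42.5% and 43.6% in hMR corneas. The conjunctival and mucosal keratins described above had 3281 and 5876 CPM in the hMR pair. With Krt12 and Krt5 left out of the total, that class made up 44.6%, 55.1% and 59.2% of the remaining keratin counts in controls and 48.8% and 64.8% in hMR corneas. Other epithelial keratins, mostly Krt80, made up 26.0%, 25.4% and 17.7% of that remainder in controls and 25.1% and 12.6% in hMR corneas. Ka11 and the unnamed isoforms of the Krt14 row are outside these totals. The unnamed isoforms had 168 and 522 CPM in hMR corneas 1 and 2. hMR cornea 2 thus had the largest conjunctival and mucosal share and the smallest other epithelial share of the 5 libraries.

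Set in gene order, some neighbouring keratins differed in the same direction between the hMR libraries and others in opposite directions. The runs named here were picked after their values were seen. Krt13, Krt15 and Krt19 follow each other on chromosome 10 with 0 protein-coding genes between them, and were 1.99-fold, 3.00-fold and 3.80-fold higher in hMR cornea 2. Krt10, Krt12 and Krt20 also follow each other there, and all were lower in hMR cornea 2, with ratios of 0.689, 0.709 and 0.395, while the next gene, Krt23, had a ratio of 4.59. On chromosome 7, the neighbours Krt80 and Krt7 had ratios of 0.712 and 0.560 and the neighbours Krt8 and Krt18 ratios of 1.45 and 1.52. Neighbours also went opposite ways: Krt16 had a ratio of 0.175 beside Krt17 with 1.65, and Krt5 had 0.806 beside Krt71 with 2.06. Likewise, Krt78 had 0.518 beside Krt8 with 1.45, and Krt17 had 1.65 beside Krt42 with 0.898. This is a description of 1 pair of libraries over genes that share them, and it was not tested.

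**Figure D5:**
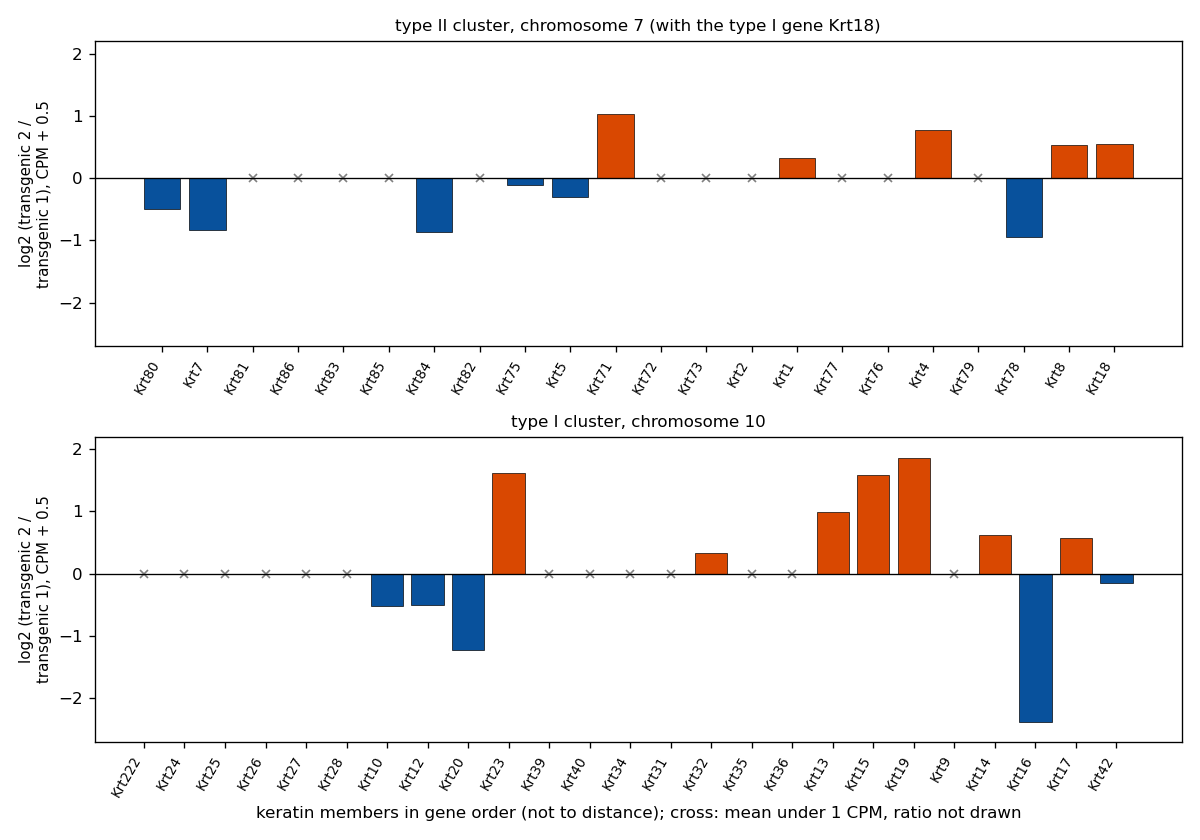
Log2 ratio of hMR cornea 2 to hMR cornea 1 (CPM + 0.5) for keratins in their RefSeq order on chromosome 7 (upper panel) and chromosome 10 (lower panel), not drawn to distance; crosses mark keratins under a mean of 1 CPM, whose ratio is not drawn. The bars of Krt13 (0.99), Krt15 (1.58) and Krt19 (1.86) stand together above 0, and those of Krt10 (-0.52), Krt12 (-0.50) and Krt20 (-1.23) together below it. The Krt14 bar is the whole gene-table row and lies above 0 (ratio 1.54). The isoforms named Krt14 went the other way, with a ratio of 0.886.

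Genes that work with keratins were taken from 3 lists. Of 20 plaque and linker proteins, which tie keratin filaments to desmosomes and hemidesmosomes, 18 were tested: 12 had a log2 fold change above 0, 6 below, and 0 passed, with a median of 0.02. The 3 of smallest p were the linkers Dst and Plec and the desmosomal plakophilin Pkp3. Plec, which links filaments to hemidesmosomes, had 641, 629 and 745 CPM in controls and 745 and 750 CPM in hMR corneas, with both hMR values narrowly above all controls (log2 fold change 0.15 ± 0.11; edgeR, adjusted p = 0.860). Dst had a log2 fold change of 0.27 ± 0.15 and Pkp3 of -0.21 ± 0.16.

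Of 16 other intermediate filament genes, 11 were tested, 3 above 0 and 8 below, 0 passed, and the median was -0.12. Vim, the filament of keratocytes and other mesenchymal cells, had 56.2, 51.9 and 44.3 CPM in controls and 66.5 and 75.2 CPM in hMR corneas. Both hMR values of Vim were above all controls, and it did not pass after adjustment (0.48 ± 0.12; edgeR, adjusted p = 0.492). Next in p were the nuclear lamin Lmnb2 (-0.13 ± 0.12) and the neurofilament gene Nefh (-0.23 ± 0.24).

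Of 20 transcription factors known to act on keratin genes, 17 were tested, 6 above 0 and 11 below, 0 passed, and the median was -0.07. Elf3, an ETS factor of differentiating epithelia, had a log2 fold change of -0.25 ± 0.13, and Ovol2, a zinc finger repressor that maintains epithelial identity, of 0.42 ± 0.25. Grhl1, a grainyhead factor of desmosomal genes, had 490.3, 461 and 479 CPM in controls and 434 and 405 CPM in hMR corneas, with both hMR values below all controls (-0.18 ± 0.10; edgeR, adjusted p = 0.833).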

How the data were processed

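RNA was sequenced in 5 cornea libraries, 3 from wild-type and 2 from transgenic rats. The authors deposited estimated counts per gene and per isoform, each in 1 table of 5 columns. The submitters' processing notes name the rn6 genome, RSEM 1.2.28, STAR 2.5.3a, edgeR 3.28.0 and DESeq2 1.26.0, with fastp and FastQC. The roles of these tools and the gene annotation are not given in the sources used here. Groups and replicate numbers came from the sample titles.

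Estimated counts were rounded for the tests. Genes were filtered with filterByExpr (minimum count 10) and scaled by the trimmed mean of M-values, and genotypes were compared over the whole table with edgeR 4.0.16 (robust quasi-likelihood test, 2-sided, Benjamini-Hochberg threshold 0.05) in R 4.3.3. DESeq2 1.42.0, limma 3.58.1 (voom), other scalings, no filter, isoform sums, the replicate number as a block and leaving out each library were alternatives. In the genotype test, replacing the Krt14 row by its named isoforms was a further alternative, added after seeing the data. Keratin totals and class shares always used the named isoforms of Krt14. Ratios between libraries used CPM with 0.5 added. Every keratin with a mean of at least 1 CPM was named, and of the linked lists the 3 of smallest p each. The members and lists were chosen with earlier results of these data known. Same-numbered samples did not deviate together, so replicate numbers were not taken as pairs. Promoters and gene order are from RefSeq (GRCr8), used for names, order and sequence only, since the counts were made on rn6.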

Additional observations from a re-analysis of the deposited data

How the results depend on the processing

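The number of keratins called between genotypes stayed 0 in the gene table and 0 among keratin isoforms under every alternative run, and 0 for the linked lists. Among the names found only in the isoform table it stayed 0 in every run that kept both hMR corneas. A fit without hMR cornea 1 or without hMR cornea 2 leaves 1 transgenic library and rests on a spread taken from the other libraries. For these names such fits are therefore given as log2 fold changes only. With 1 library left out, log2 fold changes whose sign changed ranged from -0.0268 to 0.34 for Krt1, -0.38 to 0.39 for Krt4, -0.0894 to 0.22 for Krt5, -0.33 to 0.17 for Krt12, -0.24 to 0.75 for Krt13, -0.28 to 0.34 for the Krt14 row, -0.997 to 0.58 for Krt15, -2.03 to 0.48 for Krt16, -1.28 to 0.64 for Krt19, -1.27 to 0.0673 for Krt20, -3.27 to 0.20 for Krt23, -0.16 to 0.57 for Krt32, -0.41 to 0.63 for Krt71, -0.00035 to 0.33 for Krt75, -0.60 to 0.35 for Krt78, -0.50 to 0.75 for Krt84 and -0.46 to 0.014 for Pkp3. Others kept their sign but moved, from -0.995 to -0.155 for Krt7, 0.0113 to 0.55 for Krt8, -0.55 to -0.012 for Krt10, -2.02 to -0.65 for Krt17, 0.28 to 0.89 for Krt18, -0.56 to -0.0673 for Krt80, 0.173 to 0.45 for Dst, 0.29 to 0.72 for Ovol2 and -0.23 to -0.0364 for Lmnb2. Krt15, at 0.00067, also changed sign with DESeq2 (-0.0026), limma voom (-0.21) and DESeq2-type size factors in edgeR (-0.00083), and Krt19 with library totals only (0.0277). With the replicate number as a block, Krt15 was -0.17 and no keratin was called; same-numbered samples correlated at 0.00066 and -0.105. With Krt12 left out of the keratin total, which raises every other share by construction, the mean shares in controls and hMR corneas were 83.5% and 83.0% for basal and limbal, 9.99% and 11.3% for conjunctival and mucosal, 0.0718% and 0.0588% for epidermal, 0.0612% and 0.0382% for stress, 4.32% and 3.38% for other epithelial and 2.11% and 2.24% for hair keratins. Between the hMR libraries, the 2-fold higher keratins were 4 or 5 and the lower ones 2 or 3 across the settings. Over all genes, 0.966% were 2-fold higher and 0.854% lower in the main setting. The shares over all genes in the other settings are not given here, so those counts have nothing to be set against. Krt23 gave no value from isoform sums. Low counts limit Krt17, Krt18, Krt23, Krt32 and Krt84.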

Other observations

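A few rows outside the rule bear on keratins. Kb15, a type II keratin name that RefSeq lists as a synonym of Krt90, had 30.5, 34.3 and 25.0 CPM in controls and 37.3 and 18.9 CPM in hMR corneas. The hMR pair held its highest and lowest values, with a ratio of 0.507 between hMR cornea 2 and hMR cornea 1 (genotype log2 fold change -0.09 ± 0.31; edgeR, adjusted p = 0.975). Ka11 had 254, 313 and 290.2 CPM in controls and 322 and 316 CPM in hMR corneas (0.16 ± 0.11; edgeR, adjusted p = 0.868), and both hMR values were above all controls. Hair shaft keratin-associated proteins were close to 0: Krtap3-2 had 21, 4 and 1 counts in controls 1 to 3 and 0 in both hMR corneas, and Krtap4-3 had 5, 2, 0, 0 and 0. Control 1 had the most counts of both.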
